A study of Homo sapiens with 2 samples.

Results

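Glycolysis and the genes around it were compared between wild-type (WT) and MEIS2-/- cells at day 4 of hematopoietic differentiation. The 36 members comprised the enzymes of the 10 glycolytic steps, transporters of glucose and lactate, lactate dehydrogenases, the PFKFB and PDK regulators, and enzymes of glycogen and of the pentose phosphate pathway. They were chosen by gene symbol, after the NCBI Gene numbers of the deposited tables had been matched to symbols, and all 36 were found among the 17397 genes listed. The list was drawn up with earlier results of these data known, so its shares of called genes are descriptive only. The data comprised 2 libraries, 1 per genotype. H1 is an established human embryonic stem cell line. The WT library came from H1 cells labelled wild type. The MEIS2-/- library came from H1 cells in which a CRISPR/CAS9 guide against MEIS2, carried by a lentivirus with puromycin selection, had been used to derive homozygous clones. The source does not say which clone was sequenced, or whether the WT cells had received a control vector. Cultures of both genotypes were given activin A at 50 ng/ml with BMP4 at 40 ng/ml over 2 days, followed by VEGF at 40 ng/ml with bFGF at 50 ng/ml over another 2 days. With 1 library per genotype no difference below has a replicate check, no test was possible, and differences are described by their size.

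Glycolysis splits glucose into pyruvate in the cytosol, with a net gain of ATP. Pyruvate is then either reduced to lactate and exported, or taken into mitochondria and oxidised by the pyruvate dehydrogenase complex and the citric acid cycle. Branches lead from glucose 6-phosphate into glycogen and into the pentose phosphate pathway, which supplies NADPH and ribose. Human embryonic stem cells rely strongly on glycolysis, and many of its genes are classical targets of the hypoxia-inducible factors (HIFs) and of MYC. Most steps can be catalysed by several enzymes encoded by separate genes, called isoforms here, so each step was followed both as a sum and isoform by isoform.

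Levels are given as FPKM (fragments per kilobase of transcript, scaled to the total of mapped fragments), which are corrected for length and can be compared between genes. MEIS2 itself stood at 10.9 FPKM in WT and at 3.44 FPKM in MEIS2-/- cells. Differences are the log2 ratio of the MEIS2-/- to the WT level, with 0.1 FPKM added to both values, which understates the difference of genes with low values. A gene is called lower or higher when the difference reached 2-fold, among the 13075 genes that reached 1 FPKM in either library or both. The number of fragments behind each value is unknown. The median difference of all genes compared was 0.12, so a gene that moved like the typical gene sits slightly above 0. All 36 members passed the filter. PDK4 passed only through the MEIS2-/- library, at 11.5 FPKM against 0.98 FPKM.

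Most of these genes were lower in MEIS2-/- cells. Of the 36 members, 16 were at least 2-fold lower, against 7.97% of all genes compared, and 1 was at least 2-fold higher, against 7.84%. The other 19 differed by less than 2-fold. The median difference of the members was -0.92, against 0.12 for all genes compared, and 30 of 36 were lower to any degree, against 40.6% of all genes compared. Calls of 4-fold or more were made for 6 members that were lower, against 1.84% of all genes compared, and for PDK4 among those higher, against 1.48%. The members are highly expressed genes, with a median of 156 FPKM in WT cells against 4.84 FPKM for all genes listed. Among the 20 members with a mean of at least 100 FPKM, 11 were at least 2-fold lower, against 6.57% of the 715 genes at that level, and 0 at least 2-fold higher, against 2.66%. Together the members made up 3.66% of the summed FPKM of the WT library and 1.81% of that of the MEIS2-/- library, a fall from 16399 to 7969 FPKM, while all other genes listed summed to 431143 and 432682 FPKM. Of the 100 most highly expressed genes, 8 were members in WT and 3 in MEIS2-/- cells.

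**Figure D1:**
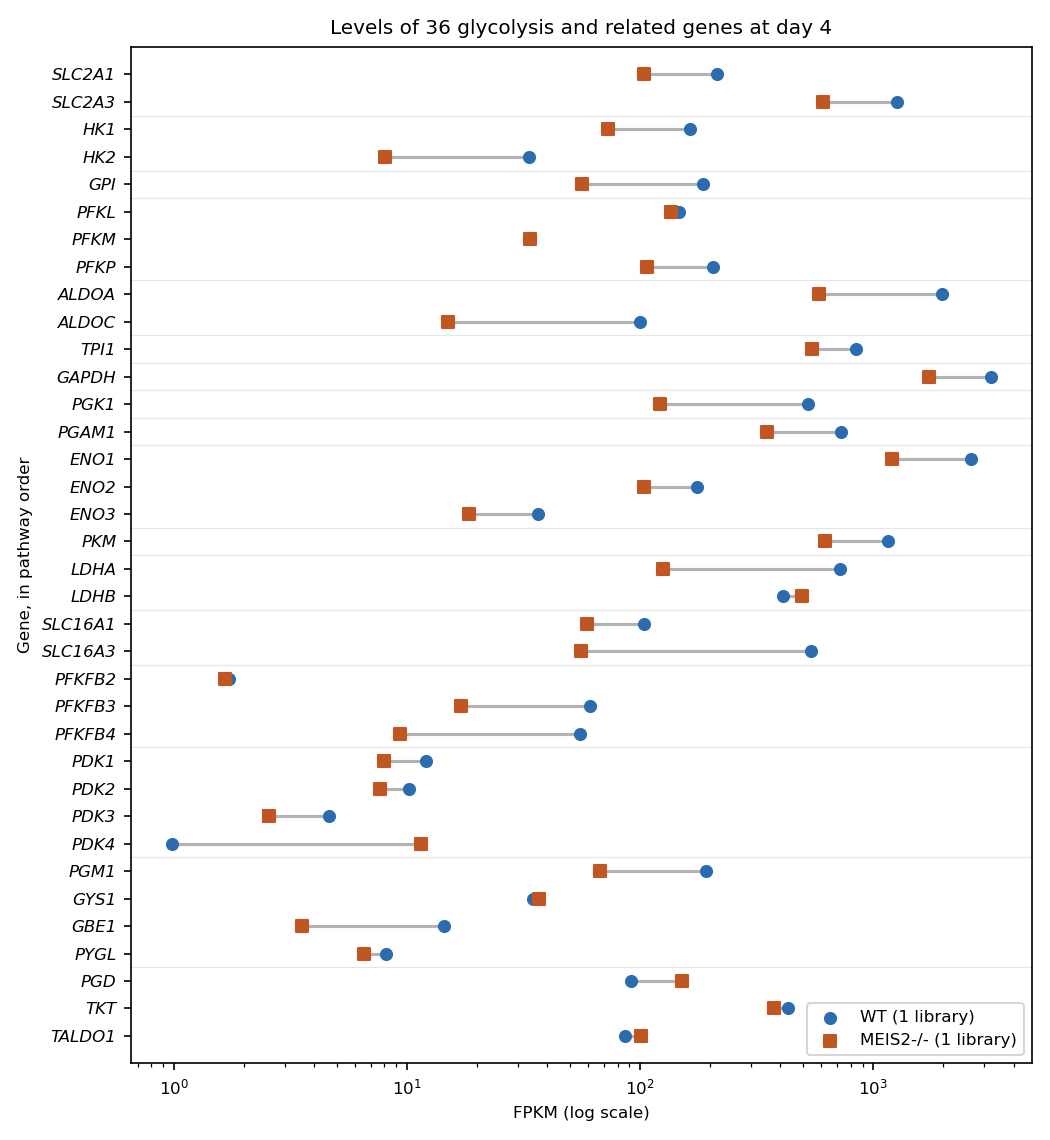
FPKM of the 36 members (log axis) in the WT library (circles) and the MEIS2-/- library (squares), in pathway order from glucose uptake to the pentose phosphate pathway, with 1 library per genotype and no error bars. The squares lie left of the circles for 30 members, and the widest gaps are those of SLC16A3, ALDOC, PFKFB4 and LDHA to the left and of PDK4 to the right.

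Glucose enters these cells through facilitative transporters. SLC2A1, which encodes the widely expressed transporter GLUT1, fell from 214 FPKM in WT to 104 FPKM in MEIS2-/- cells, a difference of -1.04. SLC2A3, which encodes the high-affinity transporter GLUT3, fell from 1267 FPKM to 612 FPKM, a difference of -1.05. The pair therefore moved in near parallel, and SLC2A3 made up 85.5% of their summed level in both libraries. SLC2A14, a close copy of SLC2A3, was listed at 13.5 FPKM and 7.26 FPKM. Fragments from this near-identical pair cannot be separated with certainty.

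Hexokinases trap glucose in the cell as glucose 6-phosphate. HK1, the broadly expressed form, fell from 164 FPKM to 72.8 FPKM, and HK2, the inducible form, from 33.4 FPKM to 8.03 FPKM. The difference was -1.17 for HK1 and -2.04 for HK2. The share of HK2 in their summed level was 16.9% in WT and 9.94% in MEIS2-/- cells. GPI, which converts glucose 6-phosphate to fructose 6-phosphate, fell from 186 FPKM to 56.2 FPKM, a difference of -1.73.

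The phosphofructokinases, which catalyse the committed step of glycolysis, differed less in their sum than GPI before them and the aldolases after them. None of the 3 genes reached 2-fold, which also held for TPI1, GAPDH and PKM further along the pathway. PFKL, the liver-type subunit, was at 147 FPKM in WT and 135 FPKM in MEIS2-/- cells, and PFKM, the muscle-type subunit, at 33.4 FPKM and 33.8 FPKM. PFKP, the platelet-type subunit, was at 206 FPKM and 107 FPKM, a difference of -0.95. Their summed level in MEIS2-/- cells was 71.5% of that in WT cells. PFKP was the most abundant of the 3 in WT cells, with 53.4% of the sum, and PFKL was the most abundant in MEIS2-/- cells, with 49.0%.

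The next enzymes split and interconvert the triose phosphates. ALDOA, the main aldolase, fell from 1981 FPKM to 584 FPKM, a difference of -1.76. ALDOC, the brain-type aldolase, fell from 100.3 FPKM to 15.0 FPKM, a difference of -2.73. As ALDOA supplied over 95% of the aldolase sum in either library, the sum followed it, to 28.8% of its WT level. TPI1, which interconverts the pair of triose phosphates made by aldolase, was at 848 FPKM in WT and 548 FPKM in MEIS2-/- cells, a difference of -0.63. Among steps from glucose uptake to lactate export, only the phosphofructokinase sum differed less than TPI1.

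The ATP-yielding part of the pathway was lower at every step, by unequal amounts. GAPDH, which oxidises glyceraldehyde 3-phosphate, was the second most highly expressed gene of the WT library, at 3203 FPKM, and stood at 1742 FPKM in MEIS2-/- cells, a difference of -0.88. PGK1, which makes the first ATP, fell from 527 FPKM to 122 FPKM, a difference of -2.11. PGK1 is a single gene for its step in these cells, since PGK2 was listed at 0.01 FPKM and 0 FPKM. PGAM1, the phosphoglycerate mutase, fell from 725 FPKM to 349 FPKM, a difference of -1.06. PGAM4, a near copy of PGAM1, was at 8.72 FPKM and 4.62 FPKM, and its fragments are likewise hard to assign.

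Enolases make phosphoenolpyruvate. ENO1 fell from 2617 FPKM to 1200.3 FPKM, a difference of -1.12. ENO2, the neuronal type, was at 176 FPKM in WT and 104 FPKM in MEIS2-/- cells, and ENO3, the muscle type, at 36.3 FPKM and 18.5 FPKM. The 3 isoforms kept nearly the same proportions, with ENO1 at 92.5% of their sum in WT cells against 90.7% in MEIS2-/- cells. PKM, which encodes the pyruvate kinases PKM1 and PKM2 by alternative splicing, was at 1155 FPKM and 622 FPKM, a difference of -0.89. The tables hold 1 value per gene, so the splice forms of PKM were not separated.

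In percentage points of share, the isoforms of lactate dehydrogenase differed most among the steps, by 43.6 points. LDHA encodes the subunit that favours the reduction of pyruvate to lactate, and LDHB the subunit that favours the oxidation of lactate. LDHA fell from 722 FPKM in WT to 126 FPKM in MEIS2-/- cells, a difference of -2.52. LDHB was at 409 FPKM in WT and 496 FPKM in MEIS2-/- cells, a difference of 0.28. The ratio of LDHA to LDHB was therefore 1.77 in WT and 0.253 in MEIS2-/- cells, a change of -2.80 on the log2 scale. LDHB went from 36.2% of the summed level to 79.8%, while the sum of both genes stood at 54.9% of its WT level.

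The lactate transporters also differed from each other. SLC16A3, which encodes MCT4, the lactate exporter of glycolytic cells, fell from 539 FPKM to 55.5 FPKM. This was a difference of -3.28, or 9.69-fold, and the lowest among the members. It ranked 46 from the lowest among the 13075 genes compared. SLC16A1, which encodes the broadly expressed transporter MCT1, was at 104 FPKM in WT and 59.4 FPKM in MEIS2-/- cells, a difference of -0.81. The share of SLC16A3 in their sum was 83.8% in WT and 48.3% in MEIS2-/- cells, so the pair was nearly level in the latter. BSG, which encodes the chaperone basigin that both transporters need to reach the membrane, was at 896 FPKM and 822 FPKM. EMB, which encodes the related chaperone embigin, rose from 6.67 FPKM to 22.9 FPKM, a difference of 1.76.

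The PFKFB enzymes set the level of fructose 2,6-bisphosphate, the strongest activator of phosphofructokinase. PFKFB3, the form with the highest kinase activity, fell from 60.8 FPKM to 17.0 FPKM, a difference of -1.83. PFKFB4, which is known to respond to hypoxia, fell from 55.1 FPKM to 9.31 FPKM, a difference of -2.55. PFKFB2, the heart type, was at 1.73 FPKM and 1.65 FPKM. The summed level of the 3 regulators stood at 23.8% of that in WT cells, while the phosphofructokinases on which they act stood at 71.5%.

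The PDK kinases shut pyruvate out of the citric acid cycle by phosphorylating pyruvate dehydrogenase. The isoforms lay on opposite sides of 0. PDK4, the isoform known for its response to fasting and fatty acids, rose from 0.98 FPKM in WT to 11.5 FPKM in MEIS2-/- cells, a difference of 3.42, and was the 1 member called higher. It ranked 27 from the highest among the genes compared. PDK1, a classical HIF target, was at 12.03 FPKM in WT and 7.93 FPKM in MEIS2-/- cells, a difference of -0.60. PDK2 was at 10.2 FPKM and 7.67 FPKM, and PDK3 at 4.64 FPKM and 2.57 FPKM. The sum of all 4 was nearly the same, at 27.9 FPKM and 29.6 FPKM, because PDK4 supplied 38.7% of it in MEIS2-/- cells.

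The 4 glycogen members differed among themselves. PGM1, which links glucose 6-phosphate to glycogen, fell from 192 FPKM to 67.0 FPKM, a difference of -1.52. GBE1, the branching enzyme, fell from 14.4 FPKM to 3.53 FPKM, or 3.99-fold. GYS1, the muscle-type glycogen synthase, was at 34.9 FPKM in WT and 36.8 FPKM in MEIS2-/- cells. PYGL, the liver-type phosphorylase, was at 8.16 FPKM and 6.57 FPKM. The differences of GYS1 (0.08) and PFKM (0.01) were small, and their signs turned once the median log2 ratio of all genes was set to 0. They also turned with rescaling by a trimmed mean.

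None of the 3 pentose phosphate members reached 2-fold. PGD, which encodes 6-phosphogluconate dehydrogenase of the oxidative branch, was at 91.1 FPKM in WT and 151 FPKM in MEIS2-/- cells, a difference of 0.73. TKT, the transketolase, was at 432 FPKM and 377 FPKM, and TALDO1, the transaldolase, at 86.4 FPKM and 101 FPKM. Their summed level in MEIS2-/- cells was 103% of that in WT cells, beside 47.1% for the 16 genes of the 10 glycolytic steps.

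Further genes of the same pathways were called about as often as other genes. A list of 85 was written by hand, of which 80 were in the tables and 60 were compared. In it 4 genes were at least 2-fold lower and 6 at least 2-fold higher, beside 7.97% and 7.84% of all genes compared, with a median of 0.25. With the median log2 ratio of all genes set to 0, 7 were lower and 5 higher, beside 1197 and 833 of the 13075 genes compared. Among the lower genes were SLC2A4, the insulin-responsive transporter, with -1.43, PYGM, the muscle phosphorylase, with -2.17, and PPP1R3C, which targets protein phosphatase 1 to glycogen, with -3.20. These lay under 5 FPKM in both libraries, and PYGM and PPP1R3C reached 1 FPKM only in WT cells. Some of the higher genes belong to glycogen breakdown. PYGB, the brain-type phosphorylase, rose from 28.2 FPKM to 68.7 FPKM, a difference of 1.28. PHKA1, a subunit of the kinase that activates phosphorylase, rose from 3.40 FPKM to 11.6 FPKM, a difference of 1.74. Also higher were EMB, LDHD, a mitochondrial dehydrogenase of D-lactate, at 1.81 FPKM and 5.57 FPKM, and FBP1, the gluconeogenic fructose bisphosphatase, at 0.12 FPKM and 1.44 FPKM, which passed the filter only through the MEIS2-/- library.

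No gene on the lists for pyruvate entry and the citric acid cycle was called. None of 10 genes for pyruvate entry (carriers, pyruvate dehydrogenase subunits and phosphatases, and pyruvate carboxylase) reached 2-fold, beside 7.97% lower and 7.84% higher among all genes compared. Their median was 0.30 with a range from -0.49 to 0.98, and 9 of the 10 lay above 0. None of 17 genes of the citric acid cycle did so, with a median of 0.20 and a range from -0.24 to 0.80. The same counts were 8 of 16 for the genes of the glycolytic steps, whose median was -1.01. With 1 library per genotype, the difference between these lists was not tested.

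Known regulators of these genes moved in different directions. HIF1A, the oxygen-regulated subunit of HIF-1, was at 30.3 FPKM in WT and 46.3 FPKM in MEIS2-/- cells, a difference of 0.61. EPAS1, which encodes HIF-2 alpha, rose from 2.16 FPKM to 13.6 FPKM, a difference of 2.60. Their partner ARNT was at 10.1 FPKM and 9.63 FPKM. EGLN1 and EGLN3, prolyl hydroxylases that mark HIF for destruction and are themselves HIF targets, fell by 1.13 and 1.24 on the log2 scale. With HIF3A, which fell by 1.23 and was named after its value was seen, 3 of the 10 genes of HIF and oxygen sensing were lower and 1 was higher, beside 7.97% and 7.84% of all genes compared, with a median of 0.14. HIF protein is controlled mainly by its stability, which mRNA levels do not show. MYC fell from 54.1 FPKM to 20.2 FPKM, a difference of -1.42, and MYCN was at 21.4 FPKM and 37.3 FPKM. TXNIP, a glucose-induced gene whose product restrains glucose uptake, fell from 103 FPKM to 4.26 FPKM. Its difference of -4.57 ranked 8 from the lowest of all genes compared. MYC and TXNIP were the 2 lower genes among 6 other regulators compared.

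Because many members are HIF or MYC targets, the sequence before their transcription starts was searched for ACGTG and GCGTG, the core of the hypoxia response element, on both strands. RefSeq promoter windows on GRCh38.p14, from 250 bases before to 50 bases after each listed start, were matched for 33 of the 36 members, at 64 starts. ACGTG was present at 35.9% of these 64 starts, beside 25% of the 15562 starts of genes compared and 21.4% of all 35116 starts. With GCGTG counted as well, the shares were 59.4%, 60.1% and 48.4%. By member, 10 of 15 that were at least 2-fold lower had ACGTG at 1 or more starts, beside 9 of 18 others, and a gene with more starts has more chances of a match. No share by gene was computed for all genes compared. By start, ACGTG was present at 13 of 32 for the lower members and 10 of 32 for the others. With GCGTG counted as well, these were 22 and 16. CACGTG, the E-box bound by MYC and its relatives, contains ACGTG on both strands and is counted in these shares; it was present at 10.9% of the members' starts, 9.18% of those of genes compared and 7.26% of all. These matches describe letters in a window and do not show binding.

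The 250 bases before the most upstream listed start are shown for 4 members that were over 4-fold lower (LDHA, PGK1, ALDOC and PFKFB4) and for 3 that were not lower (LDHB, PDK4 and PGD), 5′ to 3′ on the strand of the gene, with each core in capitals. The LDHA stretch holds 5 matches, counting both strands, in 3 blocks, 2 of which are CACGTG. PGK1 holds 3 matches and ALDOC 5, whereas PFKFB4 holds 1, a GCGTG. LDHB and PDK4 hold 0 in these 250 bases, and LDHB has a GCGTG only in the window that runs past its start. PGD, whose level was not lower, holds 3 matches, 1 of them ACGTG. The genes shown were picked after the matches were seen, to include lower members with many and few cores and others with and without them, so they do not set the groups apart. SLC16A3, the lowest member, had from 0 to 3 matches before its 5 listed starts. The stretches lie at chr11:18394313-18394562 on the plus strand for LDHA, chrX:78103998-78104247 on the plus strand for PGK1, chr17:28576896-28577145 on the minus strand for ALDOC, chr12:21657843-21658092 on the minus strand for LDHB, chr7:95596517-95596766 on the minus strand for PDK4, chr3:48556804-48557053 on the minus strand for PFKFB4 and chr1:10398814-10399063 on the plus strand for PGD.
LDHA: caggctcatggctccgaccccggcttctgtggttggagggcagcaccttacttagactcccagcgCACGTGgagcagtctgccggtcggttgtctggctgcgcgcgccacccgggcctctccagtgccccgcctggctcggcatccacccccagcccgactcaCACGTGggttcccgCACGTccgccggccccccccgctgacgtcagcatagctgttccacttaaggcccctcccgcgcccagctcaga
PGK1: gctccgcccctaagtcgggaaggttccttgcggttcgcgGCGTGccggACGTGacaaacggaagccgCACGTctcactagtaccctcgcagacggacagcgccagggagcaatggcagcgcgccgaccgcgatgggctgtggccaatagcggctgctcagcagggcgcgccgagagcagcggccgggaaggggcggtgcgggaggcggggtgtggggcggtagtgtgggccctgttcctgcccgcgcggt
ALDOC: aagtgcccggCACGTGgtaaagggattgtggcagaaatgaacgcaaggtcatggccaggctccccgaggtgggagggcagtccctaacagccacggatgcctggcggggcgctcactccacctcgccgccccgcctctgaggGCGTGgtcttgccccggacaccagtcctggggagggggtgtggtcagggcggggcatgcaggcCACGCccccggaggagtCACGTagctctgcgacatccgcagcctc
PFKFB4: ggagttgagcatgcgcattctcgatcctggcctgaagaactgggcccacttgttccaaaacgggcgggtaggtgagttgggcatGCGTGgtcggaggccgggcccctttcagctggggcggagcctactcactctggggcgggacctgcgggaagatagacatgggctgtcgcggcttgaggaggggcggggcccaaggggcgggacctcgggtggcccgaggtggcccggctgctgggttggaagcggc
LDHB: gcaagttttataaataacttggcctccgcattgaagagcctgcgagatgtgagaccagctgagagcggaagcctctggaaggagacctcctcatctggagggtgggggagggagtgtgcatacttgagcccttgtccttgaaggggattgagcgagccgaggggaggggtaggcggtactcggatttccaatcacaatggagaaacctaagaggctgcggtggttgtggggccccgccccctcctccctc
PDK4: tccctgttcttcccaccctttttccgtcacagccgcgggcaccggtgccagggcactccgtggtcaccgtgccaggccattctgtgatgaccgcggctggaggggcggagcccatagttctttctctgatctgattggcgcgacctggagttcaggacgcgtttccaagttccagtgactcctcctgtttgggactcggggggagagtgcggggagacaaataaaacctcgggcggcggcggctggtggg
PGD: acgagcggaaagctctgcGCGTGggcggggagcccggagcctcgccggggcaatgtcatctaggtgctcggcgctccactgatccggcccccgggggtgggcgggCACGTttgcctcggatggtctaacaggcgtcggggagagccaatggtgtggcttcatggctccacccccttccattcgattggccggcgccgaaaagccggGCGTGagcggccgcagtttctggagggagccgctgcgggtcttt

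Markers of other cell types moved with the genotype as well. Of 12 endothelium markers, 9 were at least 2-fold lower and 0 at least 2-fold higher, beside 7.97% and 7.84% of all genes compared, and their summed level was 857 FPKM in WT and 201 FPKM in MEIS2-/- cells. KDR, which encodes a VEGF receptor, was at 324 FPKM and 62.0 FPKM, and CD34 at 21.8 FPKM and 11.4 FPKM. All 12 visceral endoderm markers were compared, 8 were at least 2-fold higher, of which 4 reached 1 FPKM only in MEIS2-/- cells, and their sum was 499 FPKM and 1090.3 FPKM, most of it from APOA1 at 401 FPKM and 879 FPKM. Of 9 pluripotency markers in the tables, 8 were compared and 4 were at least 2-fold higher. DNMT3B and PODXL were lower, with -0.76 and -0.23. The sums over the 9 were 834 FPKM and 2104 FPKM, and most of the rise came from POU5F1, at 286 FPKM and 1454 FPKM. SOX2, a defining marker of undifferentiated cells, was at 0.09 FPKM and 0.15 FPKM. Of 11 mesenchyme markers compared 4 were at least 2-fold lower, of which 2 reached 1 FPKM only in WT cells. Another 2 of the 11 were higher to any degree. The sums over the 12 listed were 667 FPKM and 318 FPKM, with COL1A1 at 464 FPKM and 161 FPKM. The 12 hematopoiesis markers summed to 45.7 FPKM and 22.1 FPKM, and 6 of them lay under 1 FPKM in both libraries, with HBZ listed at 0 in WT cells. Of the 6 compared, 2 were at least 2-fold lower and 1 higher. TAL1, a master regulator of blood formation, made up most of the sum in WT cells, at 27.4 FPKM against 7.71 FPKM. HBE1, an embryonic globin and the 1 called higher, was at 0.42 FPKM and 2.06 FPKM, and reached 1 FPKM only in MEIS2-/- cells. The part of these cell populations in the members' differences was not tested, and in such bulk samples fewer cells of a type and less RNA per cell cannot be told apart.

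Several members have near copies in the genome that could take or lend fragments. RefSeq lists pseudogenes named after 15 of the 36 members, most of them after GAPDH with 65, and the deposited tables hold none of them. Of these 15 members, 7 were at least 2-fold lower, and of the 21 members without such a pseudogene, 9 were, beside 7.97% of all genes compared. Whether near copies took or lent fragments was not tested. With the median log2 ratio of all genes set to 0, 19 members in place of 16 were at least 2-fold lower, with PFKP, ENO3 and PKM added. At that scaling 1197 of the 13075 genes compared were lower, in place of 1042.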

How the data were processed

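RNA-Seq of 1 WT and 1 MEIS2-/- library was carried out by BGI. The authors deposited 1 table per library, with RefSeq transcripts and 1 FPKM value per gene, rounded to 2 decimals. Their processing notes name BWA, Bowtie, RSEM and the build hg19, without roles, and versions are not given in the sources used here. FPKM is relative to all mapped fragments, so a change in abundant genes shifts the others. With transcript lengths taken from GENCODE, low values did not fall on multiples of single reads (agreement 0.194 and 0.143 on a scale to 1). The lengths used by the authors are not known, so this check cannot decide whether the values are whole reads. Depth is therefore unknown and no counting interval is given.

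Of 17397 genes, 17365 were matched to a symbol in a RefSeq table (GRCh38.p14), whose gene coordinates were not used. Differences were the log2 ratio of MEIS2-/- to WT with 0.1 FPKM added, without rescaling, for genes that reached 1 FPKM in either library, and calls required 2-fold. FPKM of isoforms was added within a step. No test was possible with 1 library per genotype. The members, lists and other genes were chosen with earlier results of these data known. Named genes were all members, MEIS2, called genes of the longer list (some are not reported here), regulators and example markers, while SOX2, HBZ, TAL1, HBE1, SLC2A14, PGK2, PGAM4 and BSG were added after their values were seen. Alternatives were pseudocounts of 1 and 0.01, other filters, folds of 1.5 and 4, and rescaling to a median log2 ratio of 0, by a trimmed mean (TMM) or to equal sums. The computation was tested on planted changes. Python 3.11.15, numpy 2.4.6, pandas 2.3.3 and matplotlib 3.10.9 were used.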

Additional observations from a re-analysis of the deposited data

How the results depend on the processing

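The number of members at least 2-fold lower stayed between 16 and 19 over the pseudocounts, scalings and filters tried, and 1 member was higher in each. With a threshold of 1.5-fold, 25 members were lower and 2 higher, beside 1890 and 2353 of the 13075 genes compared, and with 4-fold 6 were lower. The median of the members ran from -1.04 to -0.90. Of 180 values recomputed for single members over 5 pseudocounts and scalings, 175 kept their call, and the other 5 brought PFKP, ENO3 and PKM past 2-fold. Among the other genes of the pathways, the 4 lower genes became 2 with a pseudocount of 1, 7 with the median log2 ratio set to 0, 0 with a mean of at least 5 FPKM, 9 at 1.5-fold and 2 at 4-fold, and the 6 higher genes became 10 without a filter, 13 at 1.5-fold and 1 at 4-fold. For all genes compared, 1042 lower and 1025 higher genes became 693 and 623 with a pseudocount of 1, 494 and 445 with a mean of at least 5 FPKM, and 1516 and 1567 without a filter. With the median log2 ratio set to 0 they became 1197 and 833. The pyruvate kinase sum passed 2-fold, at -1.01, with the median log2 ratio set to 0. Adding the other genes of a step moved the sums of glucose uptake to -0.997, of hexokinase to -0.96 and of lactate transport to -0.69, the last because BSG, a chaperone, was counted in. The same addition turned the share of HK1 from a gain of 6.95 percentage points to -10.4, since ADPGK was counted in, and that of SLC16A1 from a gain of 35.5 to -0.54. It moved the share of SLC16A3 to -29.0 points and that of PFKFB3 to 1.96. No paired analysis was possible because each genotype has 1 library, and without replicates none could be left out.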

Other observations

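ARRDC4, named after its value was seen, is like TXNIP a glucose-responsive gene of the arrestin family. It was at 3.29 FPKM in WT and 0.31 FPKM in MEIS2-/- cells, a difference of -3.05 that ranked 62 from the lowest of the genes compared. ARRDC4 reached 1 FPKM only in WT cells, so the size of this difference rests on a low value.

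GAPDH is often used as a reference gene in real-time PCR. Its ratio to ACTB was 1.96 in WT and 0.680 in MEIS2-/- cells, a change of -1.52 on the log2 scale, since ACTB stood at 1638 FPKM and 2562 FPKM. Against RPLP0 the change of GAPDH was -0.79 and against TBP it was -1.03. These reference genes were likewise chosen after the values of the members were seen.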
